A study of Rattus norvegicus with 19 samples.

Results

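Genes of cholesterol synthesis and lipogenesis were followed in the renal cortex of 19 rats, all male and of the Crl:CD (SD) strain, whose RNA was hybridised to single-colour Agilent arrays, 1 for each animal. The 32 genes were chosen by name, as probes whose gene name in the scanner files was on a list of enzymes and regulators driven by the sterol regulatory element-binding proteins (SREBPs), and all 32 were among the 24255 genes tested. They comprise 17 enzymes of sterol synthesis, 5 genes of sterol control and handling, 6 genes of fatty acid synthesis and 4 of glyceride synthesis. Sham rats (n = 5) received vehicle in place of streptozotocin, which destroys pancreatic beta cells. DKD rats (n = 7) were made diabetic with 65 mg/kg of streptozotocin given intravenously 7 days before grouping. DKD+enarodustat rats (n = 7) had the same injection and were then fed 0.01% (w/w) of enarodustat, which stabilises hypoxia-inducible factor by blocking its prolyl hydroxylases. Kidneys were taken 14 days after grouping. Of 19 streptozotocin-injected rats 14 were used, divided so that body weight and blood glucose were alike in both diabetic groups. No genetic alteration was involved, and the age of the rats was not given in the sources used here.

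Cells make cholesterol from acetyl-CoA through mevalonate, isoprenoid units, squalene and lanosterol, which is demethylated and reduced stepwise to cholesterol. Srebf2 encodes the SREBP that mainly drives this pathway and Srebf1 the one that mainly drives fatty acid synthesis. Both are membrane-bound precursors that the escort protein SCAP carries to the Golgi for cleavage when sterols are low, while INSIG proteins hold them in the endoplasmic reticulum when sterols are high, and insulin raises Srebf1 transcription in liver.

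Levels below are log2 of the processed Cy3 intensity minus the 75th percentile of the same array, so that 0 is that percentile, and levels of different genes cannot be set against each other. Of the non-control spots, 71.2% ± 2.11 (SD, n = 5) were well above background in Sham arrays, 70.1% ± 3.97 (SD, n = 7) in DKD arrays and 66.9% ± 2.38 (SD, n = 7) after enarodustat. Each of 3 slides carried arrays from all groups. Row 1 of the slides held all 5 Sham and 5 DKD arrays, and row 2 held DKD replicates 2 and 4 and all 7 DKD+enarodustat arrays. The mean share above background was 71.8% over row 1 and 66.4% over row 2, where DKD replicates 2 and 4 were at 65.9% and 63.5%, so the lower share of the enarodustat arrays cannot be told apart from their row. These 2 DKD arrays also had the highest summed levels of adipocyte markers of all 19, 3.56 and 3.92. Every member was well above background on all arrays except Lpin1, which was so on 6 of 7 DKD+enarodustat arrays. The 8 proximal tubule markers examined, among them Slc34a1 and Lrp2, were well above background on every array, as were the 4 podocyte and 4 collecting duct markers. In whole cortex, fewer cells of a type and less RNA per cell cannot be told apart.

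In diabetic cortex more of the sterol synthesis genes fell than rose. Of the 17 enzymes, 7 fell in DKD against Sham (Hmgcs1, Mvd, Idi1, Cyp51, Msmo1, Nsdhl and Hsd17b7), by 0.29 to 0.45 on the log2 scale, while Tm7sf2 and Dhcr7 rose, by 1.01 and 1.07. The other 8 did not pass the threshold of an adjusted p under 0.05. Over all 32 members, 4 were higher and 9 lower, which is 40.6% of them, against 17.1% of all genes tested (8.02% higher and 9.06% lower). The median log2 difference was -0.26 for the 17 sterol enzymes, -0.07 for the 32 members and -0.02 for all genes tested, with a median SE of 0.15 for all genes. The members were chosen with earlier results of these data known, so these shares describe the list.

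**Figure D1:**
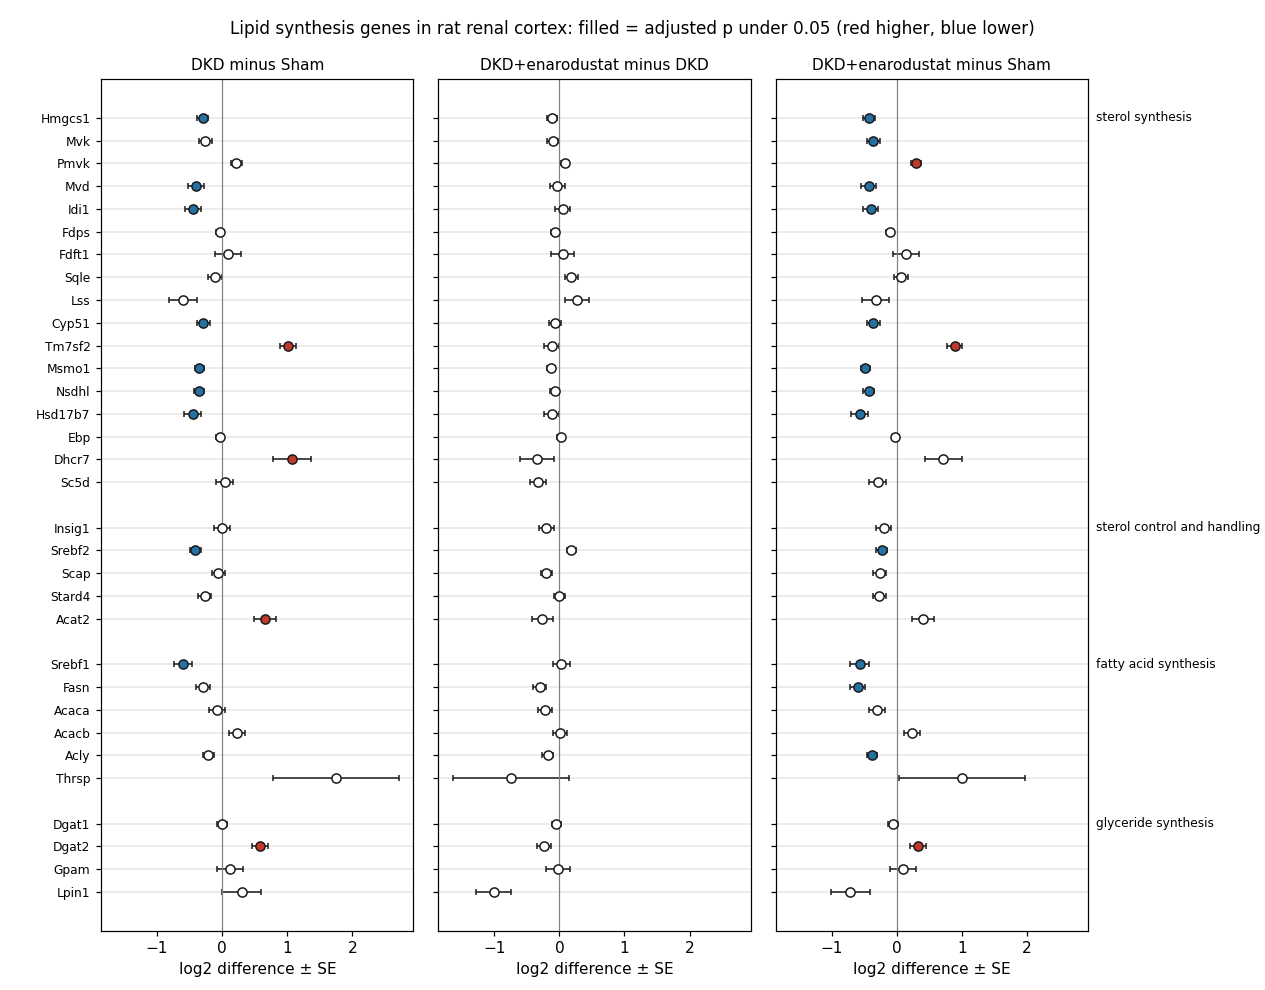
Log2 difference ± SE of the 32 members for DKD minus Sham, DKD+enarodustat minus DKD and DKD+enarodustat minus Sham (x axis), with the sterol enzymes in about pathway order from top to bottom. Filled points passed an adjusted p under 0.05 (red higher, blue lower): 13 in the first panel, 0 in the middle and 15 in the last, with Tm7sf2 to the right of zero amid lower neighbours in the outer panels.

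Msmo1, Nsdhl, Hsd17b7 and Srebf2, which fell, and Tm7sf2 and Dhcr7, which rose, are 6 of the 13 members called in DKD against Sham. The sequences ahead of their start sites are shown. They are the 250 bases before the start in the RefSeq annotation of build GRCr8, 5′ to 3′ on the gene's strand, with capitals marking the NF-Y box CCAAT or its reverse complement ATTGG. NF-Y is a factor known to bind beside SREBP in sterol gene promoters. Of the members that fell and are not shown, Hmgcs1 and Idi1 had 2 NF-Y boxes each before the start, Mvd and Srebf1 1 each and Cyp51 0.
Msmo1 (chr16:29746863-29747112, + strand): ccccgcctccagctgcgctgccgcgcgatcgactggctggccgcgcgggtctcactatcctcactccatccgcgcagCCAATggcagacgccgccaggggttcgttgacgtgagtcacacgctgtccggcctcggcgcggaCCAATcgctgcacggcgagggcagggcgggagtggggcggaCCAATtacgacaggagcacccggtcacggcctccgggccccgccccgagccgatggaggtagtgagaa
Nsdhl (chrX:155817110-155817359, + strand): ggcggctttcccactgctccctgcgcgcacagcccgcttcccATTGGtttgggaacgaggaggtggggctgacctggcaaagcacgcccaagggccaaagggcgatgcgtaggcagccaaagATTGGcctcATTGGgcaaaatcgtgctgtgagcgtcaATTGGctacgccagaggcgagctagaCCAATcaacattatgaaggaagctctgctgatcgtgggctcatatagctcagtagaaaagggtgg
Hsd17b7 (chr13:84722755-84723004, - strand): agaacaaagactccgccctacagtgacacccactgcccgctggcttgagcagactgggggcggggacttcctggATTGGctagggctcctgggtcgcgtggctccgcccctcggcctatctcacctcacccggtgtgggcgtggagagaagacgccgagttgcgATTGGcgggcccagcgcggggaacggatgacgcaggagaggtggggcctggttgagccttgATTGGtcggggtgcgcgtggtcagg
Srebf2 (chr7:115543057-115543306, + strand): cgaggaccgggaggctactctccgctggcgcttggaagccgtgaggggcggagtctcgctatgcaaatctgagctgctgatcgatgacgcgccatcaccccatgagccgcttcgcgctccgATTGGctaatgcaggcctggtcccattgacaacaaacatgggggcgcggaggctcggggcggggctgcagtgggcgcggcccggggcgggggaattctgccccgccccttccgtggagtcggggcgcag
Tm7sf2 (chr1:212789542-212789791, - strand): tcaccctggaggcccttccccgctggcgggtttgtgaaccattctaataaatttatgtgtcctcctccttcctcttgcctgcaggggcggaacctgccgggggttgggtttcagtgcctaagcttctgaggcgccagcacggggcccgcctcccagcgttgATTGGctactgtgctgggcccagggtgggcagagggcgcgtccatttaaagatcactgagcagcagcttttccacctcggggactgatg
Dhcr7 (chr1:208444184-208444433, + strand): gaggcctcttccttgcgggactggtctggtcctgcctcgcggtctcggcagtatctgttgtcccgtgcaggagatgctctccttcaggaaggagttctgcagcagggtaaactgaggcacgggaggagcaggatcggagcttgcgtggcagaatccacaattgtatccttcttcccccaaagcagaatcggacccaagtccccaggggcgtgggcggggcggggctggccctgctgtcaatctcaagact

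RefSeq promoters of 250 bases before to 50 bases after the start were found for 24 of the 32 members. Both strands were searched for 4 motifs, and no match of one overlapped a match of another. The NF-Y box CCAAT lay in 20 of the 24, against 37.5% of the 33469 promoters of that length. Msmo1 and Hsd17b7 had 3 each, Nsdhl and Mvk 5 each, and 8 of the 9 members that fell in DKD had at least 1, Cyp51 being the exception, as did 12 of the 15 that did not fall. The Sp1 box GGGCGG lay in 19 of the 24, against 33.1% of all promoters, and the E-box CACGTG in 3, against 6.42%. The sterol regulatory element, searched in the single form TCACNCCAC, matched 0 of the 24 and 1.12% of all promoters, which says only that these letters are not in these windows. Of the genes that rose, Dhcr7 and Acat2 had no NF-Y box, Tm7sf2 had 1 before and 1 after its start, and Dgat2 had no promoter in the table used. A match is a description of the sequence, not a site shown to be bound. Srebf1 has 2 starts in the table, and the first listed was used.

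Tm7sf2 encodes a sterol reductase that acts just after Cyp51, and its probe lies at chr1:208700771-208700830 on rn4, the build of the array annotation. Its levels in the 5 Sham rats were -1.11, -1.03, -1.33, -1.1 and -1.19. In DKD the lowest was -0.40, the median -0.16 and the highest 0.10, and in DKD+enarodustat they were -0.81, -0.16 and -0.10. Every diabetic rat, fed enarodustat or not, was above every Sham rat. The difference was 1.01 ± 0.12 (SE, n = 7 and 5) for DKD against Sham, a 2.02-fold higher level (limma, adjusted p = 2e-05), and -0.12 ± 0.11 for DKD+enarodustat against DKD (adjusted p = 0.728).

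Dhcr7, the reductase that completes cholesterol in one branch of the pathway (probe at chr1:204258565-204258624 on rn4), was more variable. Sham levels were 0.05, 0.20, 0.25, 0.30 and -0.08. DKD ran from 0.10 through a median of 1.48 to 1.98, and DKD+enarodustat from 0.22 through 0.98 to 1.58. DKD replicate 4, at 0.10, lay within the Sham range while the other 6 DKD rats lay above it, so the groups overlapped by 1 rat. The difference of 1.07 ± 0.29 (SE, n = 7 and 5) passed the test for DKD against Sham (limma, adjusted p = 0.0154). That of 0.72 ± 0.29 for DKD+enarodustat against Sham did not (adjusted p = 0.0765), although it did with the replicate number as a block (0.74, adjusted p = 0.0443).

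The enzymes that strip methyl groups from lanosterol were lower and closely grouped. Msmo1, the methyl sterol oxidase (probe at chr16:26716174-26716233 on rn4), had Sham levels of 2.06, 1.98, 2.30, 2.18 and 2.11. It ran from 1.61 through 1.80 to 1.87 in DKD and from 1.50 through 1.65 to 1.80 in DKD+enarodustat. Neither diabetic group reached the Sham range. The difference was -0.35 ± 0.07 (SE, n = 7 and 5) for DKD against Sham (limma, adjusted p = 0.00139) and -0.48 ± 0.07 for DKD+enarodustat against Sham (adjusted p = 5.42e-05).

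Nsdhl, the decarboxylating dehydrogenase of the same reaction series, had Sham levels of -2.06, -1.99, -1.78, -1.72 and -1.80. Its DKD levels ran from -2.41 through -2.17 to -2.11, all below Sham, a difference of -0.36 ± 0.08 (limma, adjusted p = 0.00445). A second Nsdhl probe gave -0.14 ± 0.10 and did not pass. Hsd17b7, the reductase that closes the series, had Sham levels of -3.14, -3.02, -2.95, -3.06 and -2.94 and DKD levels from -3.59 through -3.49 to -3.33. Its groups did not overlap either, with a difference of -0.45 ± 0.13 (adjusted p = 0.0226). Its second, dimmer probe gave -0.19 ± 0.14 and did not pass. Cyp51, the lanosterol demethylase that opens the series, ran from -0.65 through -0.52 to -0.27 in Sham and from -0.93 through -0.80 to -0.50 in DKD, where only replicate 1 reached the Sham range. Its difference of -0.29 ± 0.10 was just inside the threshold (adjusted p = 0.0471) and missed it in 22 of 32 alternatives, among them the replicate block (-0.27, adjusted p = 0.11). A second Cyp51 probe gave -0.32 ± 0.10.

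In the mevalonate part of the pathway, Hmgcs1, which condenses the acetyl units, had Sham levels of 1.06, 0.99, 1.50, 1.24 and 1.19. It ran from 0.77 through 0.87 to 1.13 in DKD, overlapping Sham, and from 0.57 through 0.81 to 0.89 in DKD+enarodustat, wholly below Sham. The differences were -0.30 ± 0.09 for DKD (limma, adjusted p = 0.0209) and -0.42 ± 0.09 for DKD+enarodustat (adjusted p = 0.00164), both against Sham. Mvd, the decarboxylase that makes isopentenyl diphosphate, ran from -1.62 through -1.36 to -1.08 in Sham and from -1.97 through -1.74 to -1.60 in DKD. Only the lowest Sham rat fell below the highest DKD rat. The difference was -0.40 ± 0.12 (adjusted p = 0.0261), and with the replicate block it was -0.31 and did not pass (adjusted p = 0.0683).

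Idi1, the isomerase that follows, was tightly grouped in Sham at -0.21, -0.21, -0.16, -0.12 and -0.09. In DKD it ran from -0.86 through -0.63 to -0.14, and replicate 1 alone reached the Sham range, for a difference of -0.45 ± 0.12 (limma, adjusted p = 0.0166). Its dimmer probe gave -0.34 ± 0.18 and did not pass. The 2 kinases between Hmgcs1 and Mvd had differences of opposite sign. Mvk, the first, had a difference of -0.26 ± 0.10 in DKD against Sham (adjusted p = 0.0899) and -0.36 ± 0.10 in DKD+enarodustat against Sham (adjusted p = 0.0137). Pmvk, the second, had 0.22 ± 0.08 (adjusted p = 0.068) and 0.30 ± 0.08 (adjusted p = 0.0108). Its Sham levels ran from -1.98 through -1.83 to -1.69 and its DKD+enarodustat levels from -1.65 through -1.55 to -1.39, with no overlap. Both kinases also passed for DKD against Sham with the replicate block, at -0.26 for Mvk (adjusted p = 0.00997) and 0.25 for Pmvk (adjusted p = 0.022).

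The other sterol enzymes did not pass in DKD against Sham. Lss, which closes squalene epoxide into lanosterol, had Sham levels of -1.31, -1.39, -1.32, -1.45 and -0.88 and DKD levels from -2.38 through -1.73 to -1.53. The groups did not overlap, but the difference of -0.60 ± 0.21 was just outside the threshold (limma, adjusted p = 0.0572), and it passed in 10 of 32 alternatives. Fdps, which builds farnesyl diphosphate, had a difference of -0.03 ± 0.06. Sqle, the squalene epoxidase, had -0.11 ± 0.11, Ebp, a sterol isomerase, -0.04 ± 0.05, and Sc5d, a sterol desaturase, 0.04 ± 0.13. Fdft1, the squalene synthase, had 0.09 ± 0.20, and its levels split by slide rather than by group. They lay between 1.13 and 1.42 on the 6 arrays of slide 2 and between 1.82 and 2.05 on the other 13 arrays. It was the only member whose levels on 1 slide did not overlap those on the others.

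**Figure D2:**
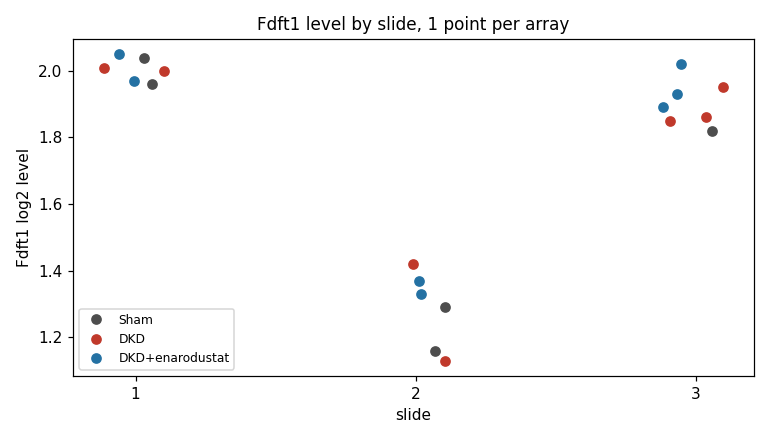
Fdft1 log2 level (y axis) by slide (x axis), 1 point per array, coloured by group. All 3 groups sit at 1.13 to 1.42 on slide 2 and at 1.82 to 2.05 on slides 1 and 3.

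Among the genes of sterol control, the transcription factor fell and its partners did not pass. Srebf2 (probe at chr7:120580150-120580209 on rn4) had Sham levels of -0.09, -0.28, 0.01, -0.11 and -0.09. It ran from -0.76 through -0.53 to -0.35 in DKD, all below Sham. In DKD+enarodustat it ran from -0.52 through -0.32 to -0.16, overlapping both other groups, with a median between theirs. The difference was -0.41 ± 0.08 (SE, n = 7 and 5) for DKD against Sham (limma, adjusted p = 0.00176). It was -0.23 ± 0.08 for DKD+enarodustat against Sham (adjusted p = 0.0453), which did not pass with the replicate block (-0.17, adjusted p = 0.107). Scap, the SREBP escort, ran from -0.77 to -0.38 in Sham and from -0.84 to -0.35 in DKD, a difference of -0.06 ± 0.10. Insig1, the retention protein and itself an SREBP target, ran from 0.39 to 0.87 in Sham and from 0.36 to 0.82 in DKD, with an SE of 0.12 around a difference near zero (adjusted p = 0.996). Stard4, a carrier of cholesterol between membranes, had -0.27 ± 0.10 (adjusted p = 0.0753).

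Acat2 is grouped with sterol handling, but in the rat the symbol names the cytosolic thiolase that supplies acetoacetyl-CoA to Hmgcs1. Its Sham levels were 1.16, 0.96, 0.81, 1.1 and 0.94, and its DKD levels ran from 1.09 through 1.81 to 1.92. DKD replicate 1 lay inside the Sham range and the other 6 above it. The difference was 0.66 ± 0.17 (SE, n = 7 and 5; limma, adjusted p = 0.0131), and the other Acat2 probes gave 0.37, 0.80 and 0.81. DKD+enarodustat spread from 0.67 through 1.35 to 1.84 and did not pass against Sham with this probe (0.41 ± 0.17, adjusted p = 0.0964). The other probes, in the same order, gave 0.17 ± 0.14, 0.55 ± 0.11 and 0.48 ± 0.16 there. Their adjusted p over probes was 0.406, 0.00131 and 0.0279 (limma), and the mean of probes passed (0.40, adjusted p = 0.031).

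**Figure D3:**
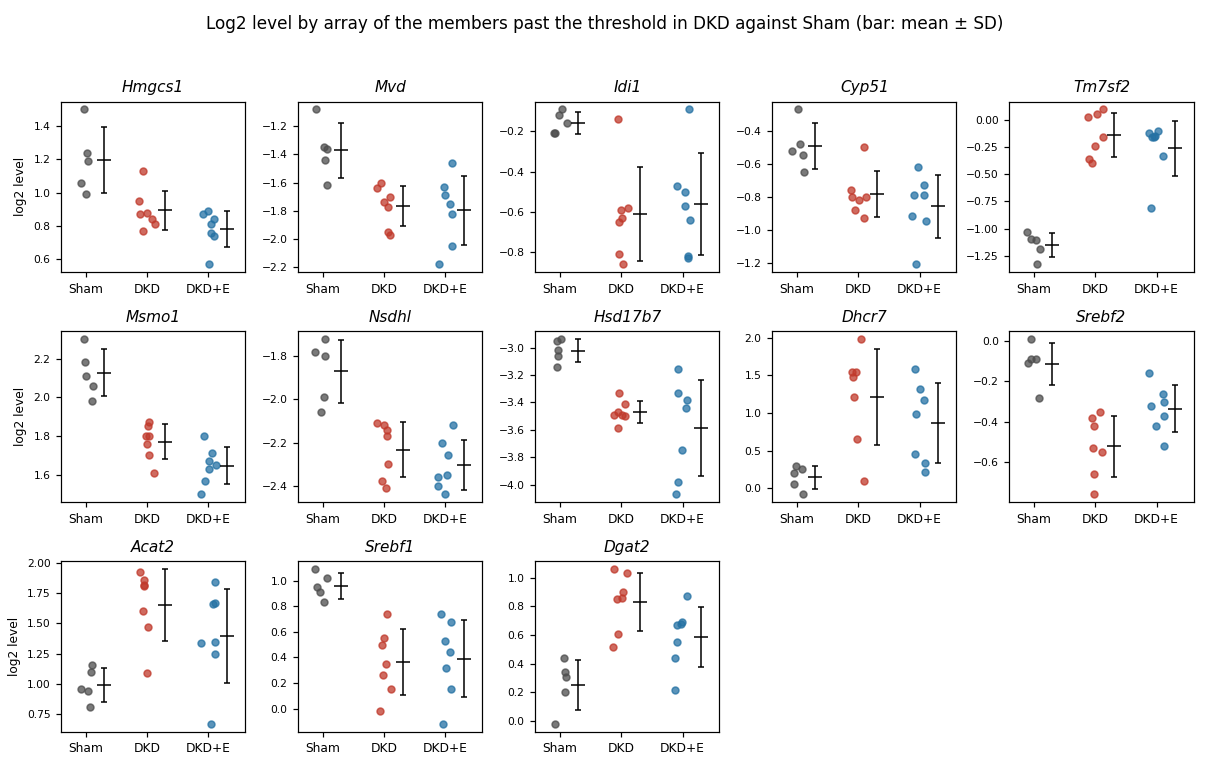
Log2 level (y axis, own scale per gene) of the 13 members past the threshold in DKD against Sham, 1 point per array in Sham, DKD and DKD+enarodustat (DKD+E), with mean ± SD beside the points. Tm7sf2 and Dgat2 in DKD lie above every Sham array, Msmo1, Nsdhl, Hsd17b7, Srebf2 and Srebf1 in DKD below every Sham array, and single DKD arrays of Hmgcs1, Mvd, Idi1, Cyp51, Dhcr7 and Acat2 fall in the Sham range.

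In the fatty acid arm the regulator was lower and the enzymes did not pass in DKD against Sham. Of the 6 genes, 0 rose and 1 fell, which is 16.7% called and close to the 17.1% of all genes. Srebf1 (probe at chr10:46462235-46462294 on rn4) had Sham levels of 0.83, 1.09, 1.02, 0.95 and 0.91. It ran from -0.02 through 0.35 to 0.74 in DKD and from -0.12 through 0.44 to 0.74 in DKD+enarodustat, both wholly below Sham. The difference was -0.60 ± 0.14 for DKD (limma, adjusted p = 0.00745) and -0.57 ± 0.14 for DKD+enarodustat (adjusted p = 0.00685), both against Sham. A second Srebf1 probe gave -0.66 ± 0.14 in DKD. The array does not show here which Srebf1 start site the RNA came from.

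Fasn, the fatty acid synthase, passed for DKD+enarodustat against Sham and for neither other comparison. Its Sham levels were -1.03, -1.15, -1.01, -1.14 and -1.26, its DKD levels ran from -1.67 through -1.38 to -1.20 and its DKD+enarodustat levels from -1.98 through -1.67 to -1.44. DKD overlapped both other groups, and DKD+enarodustat did not overlap Sham. The difference was -0.29 ± 0.11 for DKD against Sham (limma, adjusted p = 0.0714; -0.37 and adjusted p = 0.018 with the replicate block) and -0.60 ± 0.11 for DKD+enarodustat against Sham (adjusted p = 0.00054). Acly, which makes cytosolic acetyl-CoA from citrate, had Sham levels of 1.25, 1.26, 1.69, 1.48 and 1.50 and DKD+enarodustat levels from 0.96 through 1.03 to 1.15. These did not overlap, with a difference of -0.38 ± 0.08 (adjusted p = 0.00265), against -0.21 ± 0.08 in DKD against Sham (adjusted p = 0.104). The acetyl-CoA carboxylases Acaca and Acacb had -0.08 ± 0.12 and 0.23 ± 0.12 in DKD against Sham and did not pass.

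Thrsp, a regulator of lipogenesis that is abundant in fat tissue, had the widest spread of the members. Its Sham levels ran from -6.64 through -6.04 to -5.68, its DKD levels from -6.38 through -5.86 to -1.05 and its DKD+enarodustat levels from -6.59 through -5.72 to -2.36. The difference of 1.75 ± 0.97 in DKD against Sham did not pass (limma, adjusted p = 0.259). High values came from 5 rats, DKD replicates 2, 4 and 6 and DKD+enarodustat replicates 3 and 4, at -3.24 to -1.05, while the other 14 arrays lay at -6.64 to -5.59. The summed level of 11 adipocyte markers was 1.41 to 3.92 on the same 5 arrays and -1.06 to 0.54 on the other 14. By group the sum ran from -1.06 to -0.34 in Sham, from -0.19 to 3.92 in DKD and from -0.18 to 2.68 in DKD+enarodustat. Of these 11 markers 4 rose and 0 fell in DKD against Sham, which is 36.4% called, against 17.1% of all genes. The defining markers Adipoq, Fabp4 and Cidec were well above background on every array, and Plin1 was not tested. The Sham and DKD medians were -1.72 and -1.47 for Adipoq, -5.58 and -2.84 for Fabp4, and -2.20 and -1.51 for Cidec. The Sham and DKD ranges of each overlapped. The part of adipocyte RNA in the Thrsp level was not tested.

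Of the 4 glyceride synthesis genes, 1 rose in DKD against Sham and 0 fell, which is 25% called, against 17.1% of all genes. Dgat2, which adds the last acyl chain of triglycerides, had Sham levels of -0.02, 0.44, 0.31, 0.34 and 0.20. DKD ran from 0.52 through 0.86 to 1.06, above every Sham rat, and DKD+enarodustat from 0.22 through 0.67 to 0.87, overlapping both. The difference was 0.58 ± 0.12 (SE, n = 7 and 5) for DKD against Sham (limma, adjusted p = 0.00202) and 0.33 ± 0.12 for DKD+enarodustat against Sham (adjusted p = 0.0403). Without the 3 arrays highest in adipocyte markers Dgat2 still passed for DKD against Sham, and 4 members were higher and 7 lower, Mvd and Cyp51 no longer passing. DKD+enarodustat against Sham no longer passed for Dgat2 without them (0.29, adjusted p = 0.0809). Every DKD array, also those kept, had a higher marker sum than every Sham array (lowest -0.19 in DKD, highest -0.34 in Sham). The part of adipocyte RNA in the Dgat2 level was not tested. Dgat1, the other acyltransferase of that step, ran from 1.47 to 1.62 in Sham and from 1.35 to 1.63 in DKD. Gpam, which starts glycerolipid synthesis, had 0.12 ± 0.20, and Lpin1, the phosphatidate phosphatase, 0.30 ± 0.30.

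**Figure D4:**
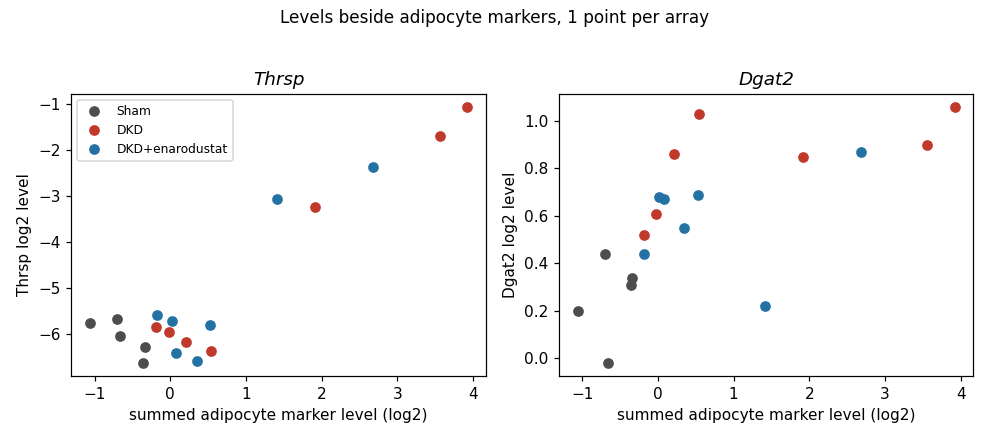
Log2 level of Thrsp and of Dgat2 (y axes) beside the summed level of 11 adipocyte markers (x axis, log2), 1 point per array coloured by group. The 5 arrays highest in Thrsp have marker sums of 1.41 to 3.92. All DKD arrays lie above the Sham arrays in Dgat2 and also in marker sum (lowest -0.19 in DKD, highest -0.34 in Sham).

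Markers of kidney cell types also moved in DKD against Sham, beside the lower sterol genes, where 17.1% of all genes were called. Of the 8 proximal tubule markers 5 fell and 2 rose, and their summed level ran from 8.56 to 8.69 in Sham, from 8.07 to 8.36 in DKD and from 8.06 to 8.37 in DKD+enarodustat. Of the 4 podocyte markers 2 fell, with sums of 3.34 to 3.62, 2.85 to 3.30 and 2.66 to 3.35 in the same order. Of the 4 thick ascending limb and distal markers 1 fell and 1 rose, with sums of 6.89 to 7.12, 5.80 to 6.72 and 6.11 to 6.78. Of the 4 collecting duct markers 2 rose, with sums of 5.51 to 5.89, 5.83 to 6.15 and 5.79 to 6.34. Of the 4 leukocyte markers 1 rose, with sums of 4.20 to 4.55, 4.58 to 5.29 and 4.70 to 5.78. These sums are weighted to the brightest markers and are not totals of a cell type. In Sham, Lyz2 alone ran from 4.14 to 4.51 and Umod alone from 6.70 to 7.00, close to the leukocyte and the limb and distal sums. The part of cell types in the member differences was not tested.

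The DKD against Sham differences of the 13 called members kept their sign within each of the 3 slides and within slide row 1. Slides 1 and 2 each held 2 DKD and 2 Sham arrays, and slide 3 held 3 and 1. The members were called on these same arrays, so the kept signs are not separate evidence. Within row 1, with 5 DKD and 5 Sham arrays, Tm7sf2 differed by 1.09, Dhcr7 by 1.23 and Dgat2 by 0.52. Of the 13, 8 passed under every alternative tried, and the others missed it in 1 (Idi1), 2 (Hmgcs1), 3 (Hsd17b7), 7 (Mvd) and 22 (Cyp51) of 32. Mvd no longer passed without Sham replicate 3 (-0.32, adjusted p = 0.0873), Sham replicate 4 or 5 (both -0.39, adjusted p = 0.0522 and 0.0524) or DKD replicate 5 or 6 (both -0.36, adjusted p = 0.0532 and 0.0504). Hsd17b7 no longer passed without Sham replicate 3 (-0.43, adjusted p = 0.056) or 5 (-0.43, adjusted p = 0.0521), or with the mean of its probes (-0.32, adjusted p = 0.0923). Idi1 no longer passed with the mean of its probes (-0.40, adjusted p = 0.0799), nor Hmgcs1 with median centring (-0.31, adjusted p = 0.054). Without Sham replicate 3 the count of lower members went from 9 to 5, with Hmgcs1, Mvd, Cyp51 and Hsd17b7 no longer passing. Over all genes, 47% of calls were higher, against 34.7% with normexp and quantile normalisation and 37% with quantile normalisation alone.

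Adding enarodustat to diabetes moved no member past the threshold. In DKD+enarodustat against DKD, 0 of 32 were higher and 0 lower, against 1.99% of all genes called (1.07% higher and 0.924% lower). At an unadjusted p under 0.05, 1 member was higher (Srebf2) and 6 were lower (Lpin1, Fasn, Sc5d, Acly, Scap and Dgat2). The median difference was -0.09 over the members, 23 of which were below zero, and -0.02 over all genes. A p that misses the threshold does not show that the groups were alike.

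**Figure D5:**
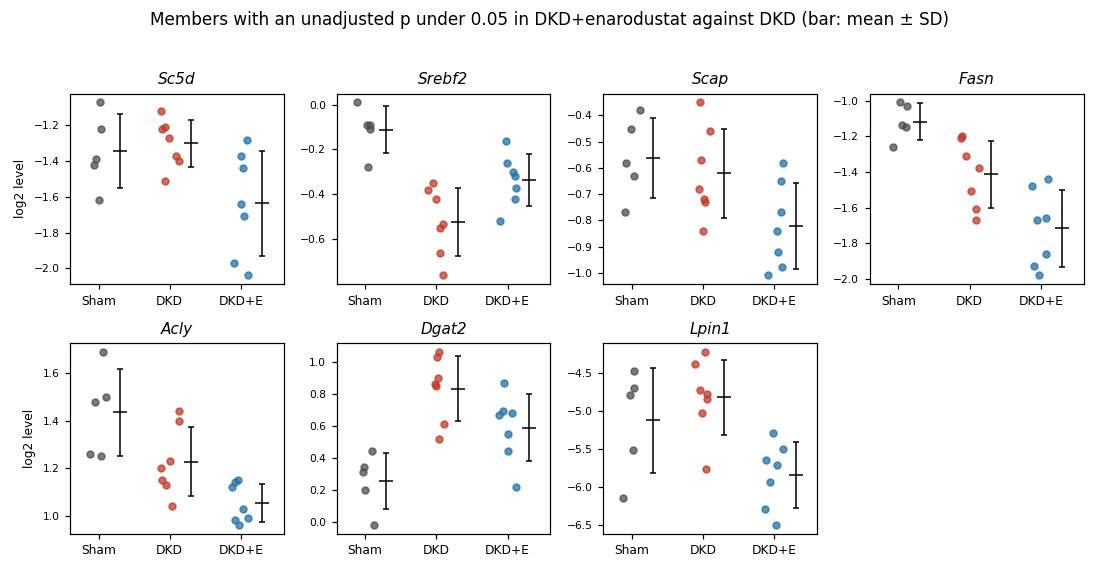
Log2 level (y axis, own scale per gene) of the 7 members with an unadjusted p under 0.05 in DKD+enarodustat against DKD, 1 point per array in Sham, DKD and DKD+enarodustat (DKD+E), with mean ± SD beside the points. The DKD and DKD+E points overlap for each gene, and Srebf2 alone is higher on average in DKD+E.

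Lpin1 had the largest difference of these. Its Sham levels were -4.79, -5.51, -6.15, -4.48 and -4.70, its DKD levels ran from -5.76 through -4.78 to -4.23 and its DKD+enarodustat levels from -6.50 through -5.71 to -5.29. DKD replicate 4, at -5.76, was the only DKD rat within the DKD+enarodustat range. The difference was -1.01 ± 0.27 (SE, n = 7 and 7; limma, adjusted p = 0.0639). It passed without DKD replicate 4 (-1.17, adjusted p = 0.0235), without Sham replicate 3 (-1.01, adjusted p = 0.0367), without the DKD arrays of slide row 2 (-1.08, adjusted p = 0.0488), with quantile normalisation (-1.09, adjusted p = 0.0311) and after normexp background correction, where it was far smaller (-0.33, adjusted p = 0.0146). The difference missed the threshold in the other 25 of 30 alternatives, with an adjusted p of up to 0.629. This probe was well above background on 18 of the 19 arrays. The other Lpin1 probes gave -0.29 ± 0.17 and 0.02 ± 0.30.

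Sc5d differed between its probes. The brighter probe had DKD levels from -1.51 through -1.27 to -1.12 and DKD+enarodustat levels from -2.04 through -1.64 to -1.28, a difference of -0.33 ± 0.12 (limma, adjusted p = 0.176). The dimmer probe gave -0.60 ± 0.09, with an adjusted p of 0.000966 over all probes kept, and the mean of both gave -0.47 (adjusted p = 0.0124). In DKD against Sham the same probes gave 0.04 ± 0.13 and 0.02 ± 0.10. In DKD+enarodustat against Sham they gave -0.29 ± 0.13 and -0.58 ± 0.10 (adjusted p over probes = 0.108 and 0.000267). The mean of both gave -0.44 there (adjusted p = 0.00425).

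Fasn had a difference of -0.30 ± 0.10 in DKD+enarodustat against DKD (limma, adjusted p = 0.133) and Srebf2 one of 0.18 ± 0.07 (adjusted p = 0.257). In a fit of the authors' deposited log2 values both passed, at -0.24 for Fasn (adjusted p = 0.0349) and 0.18 for Srebf2 (adjusted p = 0.0191). That fit called 1776 of 18366 genes, against 483 of 24255 in the main fit, from which the next values come. Acly had -0.18 ± 0.08, Scap -0.20 ± 0.09, Dgat2 -0.24 ± 0.11, Acaca -0.22 ± 0.11 and Insig1 -0.20 ± 0.11, none past the threshold. The 2 sterol enzymes that rose in DKD had -0.12 ± 0.11 (Tm7sf2) and -0.35 ± 0.26 (Dhcr7). In slide row 2, where 7 DKD+enarodustat and 2 DKD arrays can be compared, the median member difference was -0.11, Lpin1 had -0.85 and Dgat2 -0.39. Thrsp had -3.71 there, and both DKD arrays are those highest in adipocyte markers.

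The comparison of DKD+enarodustat against Sham shares each of its groups with one of those above, so its values are given beside them and are not separate evidence. In it 3 members were higher (Tm7sf2, Pmvk and Dgat2) and 12 lower, which is 46.9% of the 32, against 26.1% of all genes (10% higher and 16% lower). The lower ones were Hmgcs1, Mvk, Mvd, Idi1, Cyp51, Msmo1, Nsdhl, Hsd17b7, Srebf2, Srebf1, Fasn and Acly. Tm7sf2 differed by 0.89 ± 0.12 (limma, adjusted p = 4.29e-05), Nsdhl by -0.43 ± 0.08 (adjusted p = 0.000707), Hsd17b7 by -0.57 ± 0.13 (adjusted p = 0.00342), Cyp51 by -0.36 ± 0.10 (adjusted p = 0.00942), Mvd by -0.43 ± 0.12 (adjusted p = 0.0117) and Idi1 by -0.40 ± 0.12 (adjusted p = 0.0218). The second probes of Cyp51, Hsd17b7 and Idi1 gave -0.18 ± 0.10, -0.39 ± 0.14 and -0.39 ± 0.18 and did not pass (adjusted p over probes = 0.183, 0.0564 and 0.13), and that of Nsdhl gave -0.37 ± 0.10 and passed (0.0112). Scap, at -0.26 ± 0.10, passed only with some alternatives, such as the replicate block (-0.25, adjusted p = 0.0104). No slide row holds both of these groups. With slide row as a covariate, which rests on the 2 DKD arrays of row 2, 1 member was higher (Tm7sf2) and 3 lower (Hmgcs1, Msmo1 and Acaca). Those 2 arrays are also the highest in adipocyte markers, and the part of this in the covariate was not tested. Of the lower members that no longer passed, some had larger differences: -0.54 for Mvd, -0.65 for Hsd17b7, -0.67 for Fasn, -0.43 for Mvk and -0.40 for Srebf2. The others had like or smaller ones: -0.36 for Cyp51, -0.39 for Idi1, -0.55 for Srebf1, -0.37 for Nsdhl and -0.32 for Acly. The member median was -0.37 against -0.26 without the covariate. Pmvk and Dgat2 had much smaller differences with it, of 0.04 and 0.13. Of the 15 called members, 3 (Tm7sf2, Hmgcs1 and Msmo1) passed under every alternative tried, while Dgat2 missed the threshold in 13 and Srebf2 in 15 of 32. The 15 kept their sign within each of the 3 slides, but they were called on these same arrays, so this is not separate evidence.

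Other genes of the same pathways were counted from lists kept apart from the members. Of 19 further sterol genes tested, 2 rose and 3 fell in DKD against Sham, 0 rose and 1 fell in DKD+enarodustat against DKD, and 1 rose and 4 fell in DKD+enarodustat against Sham. The shares called were 26.3%, 5.26% and 26.3% in that order, against 17.1%, 1.99% and 26.1% of all genes. Lbr, a nuclear envelope protein with the same reductase activity as Tm7sf2, fell by 0.30 ± 0.08 in DKD against Sham (limma, adjusted p = 0.0108) and by 0.28 ± 0.07 in DKD+enarodustat against DKD (adjusted p = 0.047). Lipa, the lysosomal lipase that frees cholesterol from its esters, rose by 0.54 ± 0.11 in DKD (adjusted p = 0.00219).

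Of 23 further lipogenesis genes tested, 8 rose and 4 fell in DKD against Sham, 0 rose and 1 fell in DKD+enarodustat against DKD, and 7 rose and 8 fell in DKD+enarodustat against Sham. The shares called were 52.2%, 4.35% and 65.2% in that order, against 17.1%, 1.99% and 26.1% of all genes. Plin2, a coat protein of lipid droplets, rose in DKD by 1.17 ± 0.18 (limma, adjusted p = 0.000209), and Elovl6, a fatty acid elongase, by 0.83 ± 0.14 (adjusted p = 0.000368). Scd2, a fatty acid desaturase, fell by 1.28 ± 0.17 (adjusted p = 4.77e-05) and Me1, the malic enzyme that supplies NADPH, by 0.60 ± 0.13 (adjusted p = 0.00435). Fads2, a desaturase of polyunsaturated fatty acids, was the one that fell in DKD+enarodustat against DKD, by 0.58 ± 0.08 (adjusted p = 0.00037).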

How the data were processed

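The 19 scanner files, as deposited, hold Cy3 intensity by spot, read with Agilent Feature Extraction 11.5.1.1 and background-subtracted and detrended array by array, per the file headers. A second source was the authors' own table of log2 values, whose normalisation is not given in the sources used here; the submitters' processing notes name limma, with no version. Groups were taken from the sample labels.

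Of 62976 spots per array 58717 were not controls. Log2 of the processed intensity minus each array's 75th percentile was taken, outlier spots were left out (65 missing probe values remained), spots of 1 probe were averaged, and probes well above background on at least 5 arrays were kept (30284). Each gene name was represented by its brightest kept probe on average, giving 24255 genes. Members had 55 probes, 53 of them kept; 46 of the 55 matched the same name by accession in RefSeq, and 9 had no match.

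All 3 groups entered 1 limma 3.58.1 fit (lmFit and eBayes, R 4.3.3, statmod 1.5.0, data.table version 1.17.8) with 16 residual degrees of freedom. P-values are two-sided and Benjamini-Hochberg adjusted over all genes, with a threshold of 0.05; errors are standard errors of the fit. The fit was tested on simulated data. Summed marker levels are log2 of the summed linear levels, so the brightest markers weigh most. All members are named, and further genes were named for at most the 3 smallest adjusted p in each direction. The members, lists and tests were chosen with earlier results of these data known.

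Alternatives were normexp (offset 50) with quantile normalisation, quantile normalisation, median centring, the authors' log2 table, other filters, the mean of probes, slide, slide row and replicate blocks, and leaving out arrays. The choice to leave out the 3 arrays highest in adipocyte markers was made after seeing the data. Same-numbered arrays lay on the same slide, and their deviations from the group means correlated at 0.13 to 0.59 in every pair. A shared slide alone could give this, and the same-numbered array was often not the closest one. The labels state no pairing of rats, so the replicate block served as an alternative only. Precision is limited by how many arrays there are; within a group, arrays correlated at 0.9683 to 0.9903. Each array is 1 rat.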

Additional observations from a re-analysis of the deposited data

Results flagged for a closer look

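In 7 of 96 sets of levels, each being 1 member in 1 group, the highest or lowest array stood far from the rest by Dixon's criterion; chance gives about 1 in 20. DKD replicate 1 was high in Idi1, at -0.14 with the next array at -0.58, and in Cyp51, at -0.50 with the next at -0.76. DKD+enarodustat replicate 2 was high in Sqle, at -0.14 with the next at -0.51. Sham replicate 5 was high in Lss, at -0.88 with the next at -1.31, and Sham replicate 1 was low in Stard4, at -0.69 with the next at -0.48. DKD+enarodustat replicate 4 was low in Tm7sf2, at -0.81 with the next at -0.33. DKD replicate 5 was low in Dgat1, at 1.35 with the next at 1.54.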

How the results depend on the processing

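No member changed sign while past the threshold in any alternative. For DKD against Sham the authors' log2 table gave 14 lower members in place of 9, with 31 members tested. Over all genes it called 3576 of 18366 lower, against 2197 of 24255 in the main fit. For DKD+enarodustat against DKD, 1 member was lower in place of 0 with normexp and quantile normalisation, with quantile normalisation and without the DKD arrays of slide row 2 (Lpin1), with the mean of probes (Sc5d) and in the authors' table (Fasn), where 1 was also higher (Srebf2). For DKD+enarodustat against Sham, 5 were higher in place of 3 in the authors' table and with the slide as a block; with slide row as a covariate 1 was higher and 3 lower, in place of 3 and 12. Leaving out 1 array at a time gave 4 to 5 higher and 5 to 11 lower members for DKD against Sham, 0 higher and 0 to 1 lower for DKD+enarodustat against DKD, and 2 to 4 higher and 11 to 14 lower for DKD+enarodustat against Sham. The cause of these changes was not tested. With the replicate block the counts were 5 higher and 9 lower, 0 and 0, and 4 higher and 12 lower, and it changed no member's call other than those given above. The authors' table puts 34.3% of DKD+enarodustat against DKD calls higher, against 53.6% in the scanner values. Of the members Lpin1 alone was not well above background on every array.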
